A study of Arabidopsis thaliana with 2 samples.

Results

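The 6 tau class glutathione S-transferase genes of Arabidopsis thaliana described here are GSTU1, GSTU3, GSTU4, GSTU5, GSTU24 and GSTU25. They are 6 of the 28 tau genes of the genome and 6 of the 22746 plant probe sets on the array. The genes were selected on the log2 difference between the cadmium and the control array, as a list of probe sets with no stated threshold. Those differences are therefore a description and carry no test. The annotation table used here names 1 of the 6 probe sets, 262517_at, as GSTU25. The names of the other 5 come from the list that chose them: 262518_at for GSTU24, 266267_at for GSTU4, 266270_at for GSTU3, 266299_at for GSTU5 and 266290_at for GSTU1.

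The cadmium sample was whole Col-0 seedlings exposed to 200 µM cadmium, and the control sample was whole Col-0 seedlings left untreated. Both were 7 days old and had been grown on quarter-strength MS medium at 28 °C with 16 h of light and 8 h of dark. The labels of the cadmium sample give an exposure of 4 h, while the series text and the treatment protocol give 6 h. Each sample was hybridized to 1 Affymetrix ATH1 array, so there was no replicate, no estimate of error and no p-value, and each difference below is between 2 single arrays. Values are log2 RMA signals (robust multi-array average, a normalized array signal), and a difference of 1 on this scale is 2-fold.

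Glutathione S-transferases join the tripeptide glutathione to reactive, electrophilic compounds, which makes them more soluble and marks them for transport into the vacuole. The tau class is found in plants, where its members are known for detoxifying herbicides and other foreign chemicals and for being induced by many stresses. Glutathione is also the building block of phytochelatins, the peptides that bind cadmium in plant cells.

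GSTU25 had the largest difference of the 6 genes. Its signal was 10.35 on the cadmium array and 7.12 on the control array, a difference of 3.23, or 9.39-fold. GSTU25 has been studied as an enzyme that conjugates the explosive TNT, and its gene lies directly beside GSTU24, which encodes another enzyme with that activity. GSTU24 was measured at 10.82 on the cadmium array and 9.54 on the control array, 1.28 higher or 2.43-fold. On the chromosome 2 cluster, GSTU1 was measured at 8.76 on the cadmium array and 7.49 on the control array, 1.27 higher or 2.41-fold.

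The other 3 genes, all from the same chromosome 2 cluster as GSTU1, differed by less than 2-fold. GSTU4 was measured at 6.48 on the cadmium array and 5.86 on the control array, a difference of 0.61 or 1.53-fold. GSTU5 was measured at 8.91 on the cadmium array and 8.52 on the control array, a difference of 0.39 or 1.31-fold. GSTU3 was measured at 4.77 on the cadmium array and 4.61 on the control array, a difference of 0.16 or 1.11-fold. All 6 signals were thus higher on the cadmium array, with a median difference of 0.94. The 4 alternative settings tried kept these directions but could not have turned them. The median difference subtracted was 0.022 and the trend with signal level at most 0.092, both smaller than the 0.16 of GSTU3. Adding a constant to linear values keeps every sign, and scaling to the hybridization controls raised every difference.

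**Figure D1:**
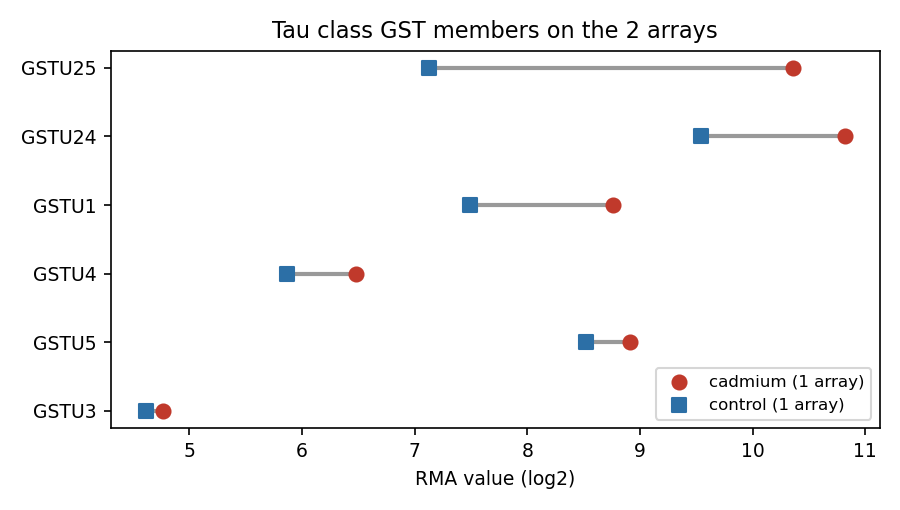
Log2 RMA values (horizontal axis) of the 6 genes on the cadmium array (circles) and the control array (squares), 1 array each, ordered by their difference. The line is longest for GSTU25, 10.35 against 7.12, and shortest for GSTU3, 4.77 against 4.61.

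Of the 6 genes, 3 (GSTU25, GSTU24 and GSTU1) were at least 2-fold higher with cadmium. Over all plant probe sets 0.422% were at least 2-fold higher (96 probe sets) and 0.624% at least 2-fold lower (142 probe sets). Because the same difference chose the genes, nothing is read from that contrast. Ordered by difference from the highest, GSTU25 ranked 2 among the plant probe sets, GSTU24 ranked 44, GSTU1 ranked 48, GSTU4 ranked 298, GSTU5 ranked 936 and GSTU3 ranked 5224. GSTU4 was thus within the top 1.31% and GSTU5 within the top 4.12% of that order, while GSTU3 was at 23.0% from the top.

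The scatter between probe sets gives a scale for the smaller values, although it is no replicate error. When the plant probe sets were divided into 4 equal groups by mean signal, GSTU1, GSTU5, GSTU24 and GSTU25 fell in the highest group, where the differences had an SD of 0.33 and a median of -0.07. The 0.39 of GSTU5 was a little above that SD. GSTU4 fell in the second group from the bottom, with an SD of 0.25, and its 0.61 lay beyond it. GSTU3 fell in the lowest group, with an SD of 0.14 and a median difference of 0.07, so that its 0.16 was near the ordinary scatter there.

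The signal of GSTU3 was also in the range of probe sets for Bacillus transcripts. These 27 control probe sets reached 4.98 on the cadmium array and 4.95 on the control array. Whether such transcripts were added to the samples is not recorded. Of the 16 tau genes with a named probe set, GSTU3 and GSTU15 lay at or below these values on both arrays. GSTU21 and GSTU23 did so on 1 array only, the control array, and their differences are given below. The table holds no detection call, so the presence of these transcripts cannot be judged.

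**Figure D2:**
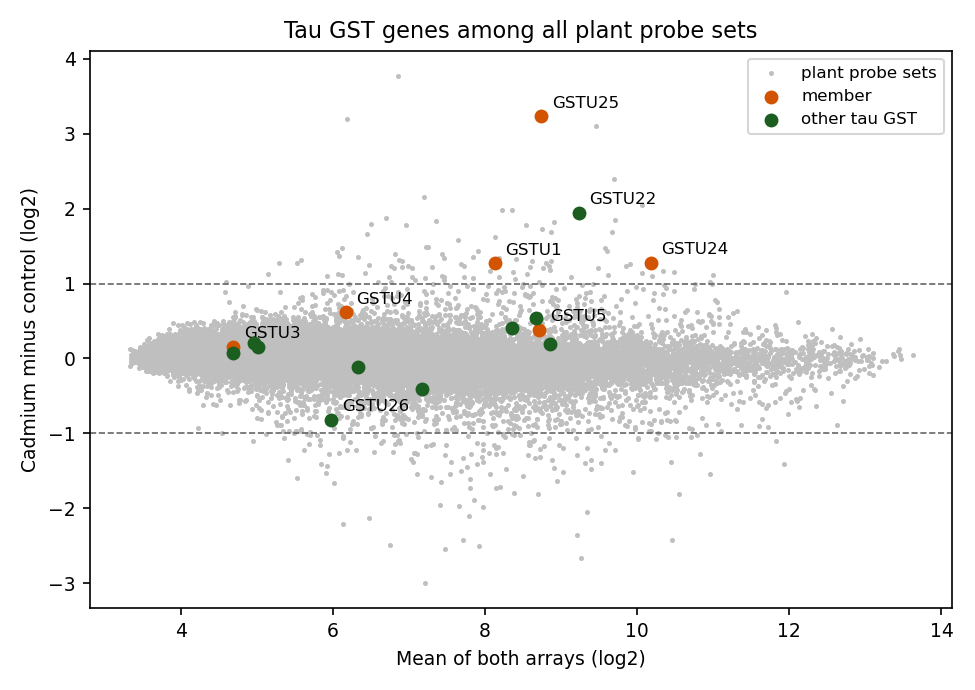
Difference between the cadmium and the control array (vertical axis, log2) against the mean of both arrays (horizontal axis, log2) for all plant probe sets (grey), the 6 genes (orange) and the other 10 named tau genes (green). Dashed lines mark 2-fold. GSTU25 at 3.23 ranks 2 among the plant probe sets, whose highest difference is 3.77, while GSTU3 at 0.16 lies within the grey cloud.

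Of the other 22 tau genes, 10 had a probe set named by the annotation table, and 1 of these, GSTU22, was at least 2-fold higher with cadmium. It was not on the list of 6, yet its difference was the second largest of the 16 named tau genes. GSTU22 was measured at 10.21 on the cadmium array and 8.26 on the control array, which was 1.95 higher or 3.85-fold. Among the 13513 plant probe sets named with 1 gene, 0.281% were past 2-fold upward and 0.437% downward.

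The remaining tau genes differed by less than 2-fold. GSTU27 was measured at 8.94 on the cadmium array and 8.40 on the control array, a difference of 0.55. GSTU16 was measured at 8.56 on the cadmium array and 8.15 on the control array, a difference of 0.40. GSTU20, which encodes an enzyme reported to bind a jasmonate-conjugating protein in light signalling, was measured at 8.95 on the cadmium array and 8.75 on the control array, a difference of 0.19. These 3 differences were of the size seen for GSTU5 or somewhat above or below it.

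Differences of GSTU21, GSTU23 and GSTU15 came from weak signals. GSTU21 was measured at 5.06 on the cadmium array and 4.85 on the control array, a difference of 0.21 that ranged from 0.10 to 0.42 over the settings tried. GSTU23 was measured at 5.09 on the cadmium array and 4.94 on the control array, a difference of 0.15 that ranged from 0.054 to 0.36. GSTU15 was measured at 4.72 on the cadmium array and 4.65 on the control array, a difference of 0.075 that became -0.014 after subtraction of a trend with signal level.

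GSTU26, GSTU18 and GSTU28 were lower on the cadmium array in the deposited values. GSTU26 was measured at 5.57 on the cadmium array and 6.39 on the control array, a difference of -0.82 on the log2 scale. GSTU18 was measured at 6.97 on the cadmium array and 7.38 on the control array, a difference of -0.41 that shrank to -0.20 when scaled to the hybridization controls. GSTU28 was measured at 6.28 on the cadmium array and 6.39 on the control array, a difference of -0.11 that turned to 0.10 once the mean difference of the spiked hybridization controls was subtracted. None of the 3 reached 2-fold.

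Over the 10 tau genes outside the list, 7 were above and 3 below 0, with a median difference of 0.17. Over the plant probe sets named with 1 gene, 56.1% were above 0 and the median was 0.03. With the 6 chosen genes included the median was 0.30, and 4 of the 16 were past 2-fold upward and 0 downward, but 3 of these 4 were chosen for their difference, so nothing is read from these values. The other 12 tau genes, among them GSTU2, GSTU6, GSTU7, GSTU17 and GSTU19, have no probe set named in the annotation table and were not analysed here.

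Many tau genes lie side by side in the genome, and neighbours did not share one value. In the TAIR10.1 gene order, 21 of the 28 tau genes fall into 6 groups of neighbours with at most 1 other protein-coding gene between them. GSTU24, GSTU25 and GSTU26 follow each other on chromosome 1 with no gene between, and their differences were 1.28, 3.23 and -0.82. The middle gene of this trio, GSTU25, thus had the highest difference of the 16 named tau genes, and it was chosen for its difference. Its neighbour GSTU26 had the lowest, a span of 4.05 on the log2 scale. With 32 added to linear values, GSTU25 was 2.97 and GSTU26 was -0.54.

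A second cluster on chromosome 1 holds GSTU23, GSTU22, GSTU21, GSTU20 and GSTU19 in that order. Its 4 named genes differed by 0.15 for GSTU23, 1.95 for GSTU22, 0.21 for GSTU21 and 0.19 for GSTU20. Only GSTU22 was past 2-fold among these 4. The chromosome 2 cluster runs from GSTU7 to GSTU1 and holds 7 tau genes, of which 4 are named. In their order on the chromosome these were 0.39 for GSTU5, 0.61 for GSTU4, 0.16 for GSTU3 and 1.27 for GSTU1.

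**Figure D3:**
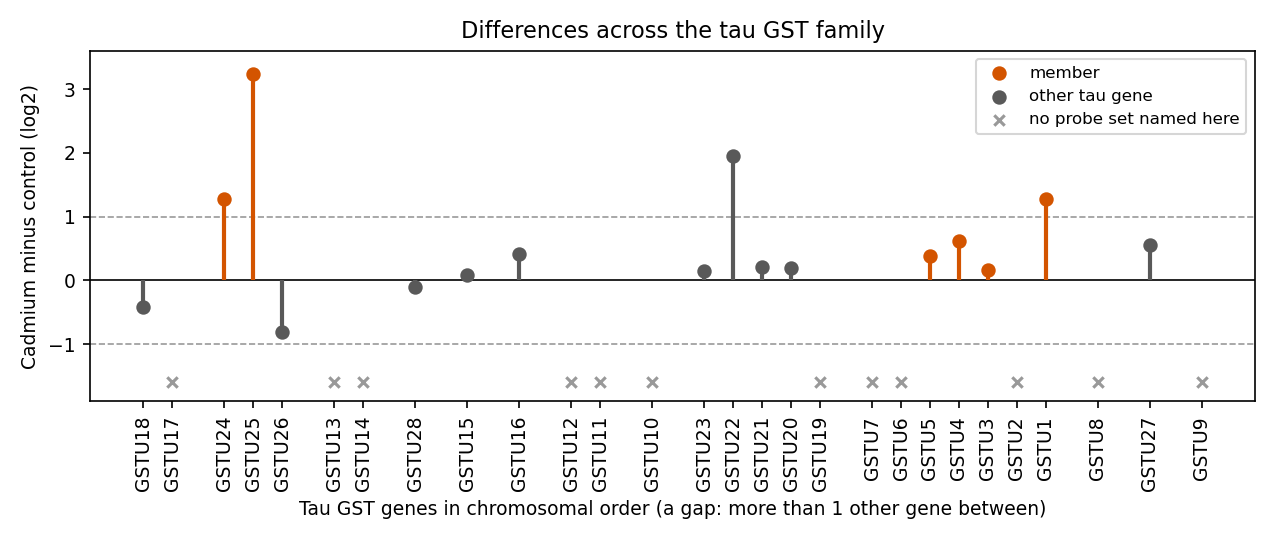
Difference between the cadmium and the control array (vertical axis, log2) for the tau genes in chromosomal order, with gaps where more than 1 other protein-coding gene lies between; orange marks the 6 genes, dark grey the other named tau genes, and crosses the genes with no named probe set. GSTU25 at 3.23 stands between GSTU24 at 1.28 and GSTU26 at -0.82, and GSTU22 at 1.95 stands among neighbours of 0.15 to 0.21.

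The genes around the GSTU24 to GSTU26 trio differed little. Of the 10 protein-coding genes that flank it, 5 on each side, 5 had a named probe set, and their differences ran from -0.06 to 0.16. The nearest of these, AT1G17160 beside GSTU24, was measured at 7.88 on the cadmium array and 7.71 on the control array. Of the 13 genes that flank or lie within the chromosome 2 cluster, 3 had a named probe set. One of them, AT2G29500, the gene next to GSTU1, was measured at 7.00 on the cadmium array and 5.85 on the control array, 1.15 higher. The other 2, AT2G29370 and AT2G29510, differed by 0.16 and -0.07.

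Related genes of one cluster can be similar enough to bind the same probes. The probe sequences were not used here, so cross-hybridization between tau paralogs was not tested. None of the 6 probe set identifiers carries the suffix by which the array maker marks probes shared between transcripts. The unequal values within clusters are those of the probe sets as named.

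Few genes of the wider glutathione system could be named. Of 13 phi class genes, the other large plant class, 2 were named and 0 were at least 2-fold different. Among single-gene probe sets 0.281% were past 2-fold upward and 0.437% downward, so 2 genes give no contrast with the tau class. GSTF4 was measured at 5.01 on the cadmium array and 5.26 on the control array, a difference of -0.25 that shrank to -0.030 when scaled to the hybridization controls, and GSTF13 differed by 0.028. Of 8 genes of the lambda, zeta and theta classes only GSTL3, of the lambda class, was named. It was measured at 9.10 on the cadmium array and 9.11 on the control array, with a difference of -0.0071 whose sign changed under 2 other scalings, to 0.067 and 0.21.

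Of 12 genes of glutathione synthesis, recycling and turnover, 2 were named, both glutathione reductases, which return oxidized glutathione to its reduced form. GR1, the reductase of the cytosol and peroxisomes, was measured at 9.63 on the cadmium array and 9.07 on the control array, 0.56 higher or 1.47-fold. GR2, the reductase of plastids and mitochondria, was measured at 9.06 on the cadmium array and 9.31 on the control array, a difference of -0.26. Neither was past 2-fold, like nearly all single-gene probe sets. None of the 8 phytochelatin synthesis and vacuolar transport genes and none of the 8 genes on the list of TGA factors and their partner SCL14, transcription regulators known to act on tau genes, had a named probe set.

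Of 14 genes known for their response to foreign chemicals and electrophiles, 5 were named, and 2 of these were at least 2-fold higher with cadmium, where 0.281% of all single-gene probe sets were. Both encode glycosyltransferases, which attach sugars to small molecules. Their locus numbers, AT2G15490 for UGT73B4 and AT2G15480 for UGT73B5, follow each other, and cross-hybridization between them was not tested. UGT73B4 was measured at 8.13 on the cadmium array and 6.78 on the control array, 1.34 higher or 2.54-fold. UGT73B5 was measured at 9.46 on the cadmium array and 8.23 on the control array, 1.23 higher or 2.35-fold. Their differences were close to those of GSTU24 and GSTU1. This list, too, was chosen with results of these data known.

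The other 3 genes of that group differed by less than 2-fold. AER, an alkenal reductase, was measured at 10.76 on the cadmium array and 10.52 on the control array, a difference of 0.24. AT4G01870 and AT3G04000 differed by 0.33 and 0.21. The median over the 5 was 0.33, and all 5 were above 0, as were 56.1% of the single-gene probe sets.

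The genes nearest to each of the 6 in the 2 array values were sought among the probe sets named with 1 gene and in none of the lists. Of the 96 plant probe sets at least 2-fold higher, 58 have no single gene in the annotation and were not searched. The measure was the distance in the plane of both log2 values, so likeness rests on 2 arrays only. It uses the values that chose the genes and signals of different probe sets, which are not levels on one scale, so it is given as a description. No such gene lay within 0.25 of GSTU25, and the nearest, AT4G37290, lay 1.06 away at 9.43 on the cadmium array and 7.65 on the control array. The gene nearest to GSTU24 was STZ, a zinc finger transcription factor, at 10.74 on the cadmium array and 9.64 on the control array. The nearest to GSTU1 was AT5G51440, at 8.65 on the cadmium array and 7.48 on the control array.

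Around the 3 smaller differences more genes lay within that distance. GSTU3 had 982 genes within 0.25, the nearest being AT1G75340, and GSTU5 had 69, the nearest being AT1G02360. GSTU4 had 68, the nearest being AT3G09405. For the larger ones, 2 genes lay within 0.25 of GSTU24 and 3 within 0.25 of GSTU1.

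Whole seedlings hold both green and root tissue, and a difference in their shares or in RNA per cell cannot be told apart in such samples. Of 10 green tissue markers 1 was named: RCA, which encodes Rubisco activase, was at 12.77 on the cadmium array and 12.83 on the control array, a difference of -0.056 that turned to 0.16 when scaled to the hybridization controls. Of 11 root markers 3 were named, with a summed signal on the linear scale of 5885 on the cadmium array and 4946 on the control array. That sum was carried by PYK10, a beta-glucosidase of root ER bodies, at 12.49 on the cadmium array and 12.22 on the control array. The root hair expansins EXPA7 and EXPA18 were lower with cadmium, EXPA7 at 6.08 on the cadmium array and 6.74 on the control array and EXPA18 at 5.62 on the cadmium array and 6.27 on the control array. The part of tissue shares in the differences of the tau genes was not tested.

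How large each difference was depended somewhat on the setting, while the order at the top did not. Across the deposited values and 4 alternatives, GSTU25 ranged from 2.97 to 3.45, GSTU22 from 1.84 to 2.16, GSTU24 from 1.24 to 1.50 and GSTU1 from 1.13 to 1.48. With 32 added to each linear value, which damps weak signals, GSTU25 was 7.82-fold higher. GSTU4 ranged from 0.42 to 0.83, GSTU5 from 0.36 to 0.60 and GSTU3 from 0.067 to 0.37. The same 3 of the 6 genes were past 2-fold in each of these settings. Subtracting the median and scaling to the hybridization controls move every gene by the same amount, so they cannot change the order. The trend with signal level moved values by at most 0.092. All settings rescale the same arrays, so the likeness between them is no replication.

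**Figure D4:**
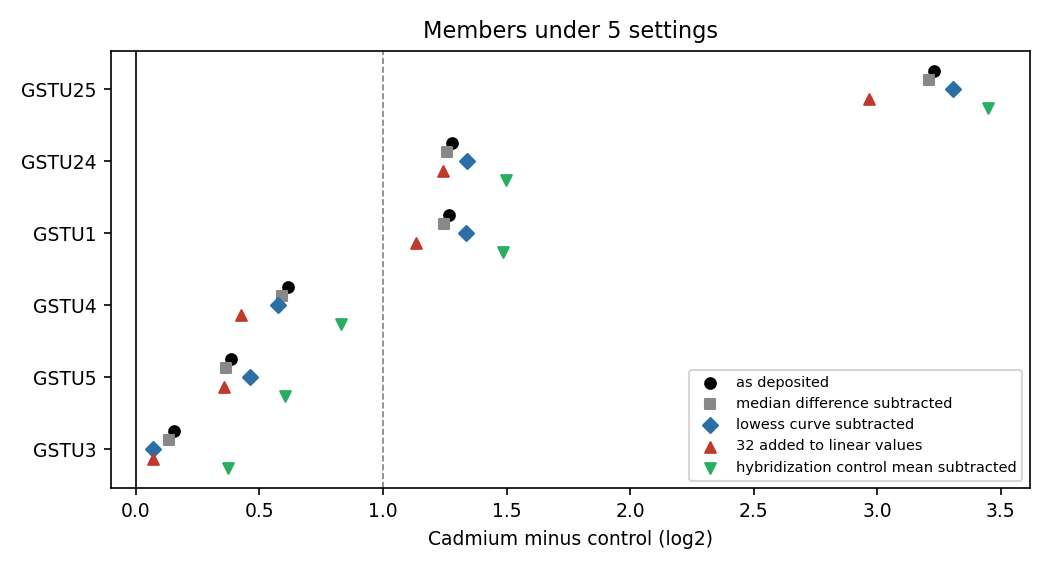
Difference between the cadmium and the control array (horizontal axis, log2) of the 6 genes as deposited and under 4 alternatives, with the dashed line at 2-fold. GSTU25, GSTU24 and GSTU1 lie right of the line in all 5, and GSTU4, GSTU5 and GSTU3 left of it, GSTU3 at 0.067 to 0.37.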

How the data were processed

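Total RNA of whole seedlings was labelled with biotin and hybridized to ATH1 arrays, 1 cadmium and 1 control. The deposited table holds 1 log2 value per probe set and array. Per the submitters' processing notes, RMA and the R package affy were used, without a stated version or options. RMA usually equalizes the distributions of the arrays, so a shift of most transcripts would not show. The arrays carried 22810 probe sets, 64 of them controls. The number of arrays limits the precision.

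Differences were taken as cadmium minus control, without filter or pseudocount, and counted at 2-fold, with no test. GEO's platform annotation listed 14016 probe sets, 13513 with 1 gene and 503 with several, which were not named. The remaining 8794 of all 22810 probe sets, controls included, were not listed. Probe sets without 1 listed gene are unnamed here, apart from 5 of the 6 genes described, named by the list that chose them. Genes were matched through Entrez identifiers to RefSeq's TAIR10.1 table. All 112 genes of 9 lists were in it, and 30 had a named probe set, none more than 1.

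The named genes are the 6 chosen, every other named tau gene, and from each other list up to 5 genes past 2-fold or otherwise the 1 with the largest difference. To these come the nearest gene to each of the 6 and, chosen after their values were seen, the flanking genes and the other named genes of the short lists. The genes described and all lists were chosen with earlier results of these data known. Alternatives were subtraction of the median difference, subtraction of a lowess curve (fraction 0.3), 32 added to linear values, scaling to the hybridization controls, and a 3-fold limit. The planned protein alignment and promoter motif search were not run, as no sequences were used here. The counting was tested on simulated data. Python 3.11.15 with numpy 2.4.6, pandas 2.3.3, statsmodels 0.14.6 and matplotlib 3.10.9 was used.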

Additional observations from a re-analysis of the deposited data

How the results depend on the processing

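The hybridization controls, added RNAs of 4 transcripts, had lower signals with cadmium for 18 of 18 probe sets. Their mean differences were unequal: -0.27 for bioB, -0.28 for bioC, -0.25 for bioD and -0.073 for cre. Scaling to them adds the mean shift over the 4, 0.22, to every difference. It gave 181 plant probe sets at least 2-fold higher and 80 lower, so that 69.3% were higher, against 96 and 142, or 40.3%, as deposited. With 32 added to linear values the counts were 63 and 91, and at the 3-fold limit 23 and 28. At the 3-fold limit, where a count can only stay or fall, 1 of the 6 genes and 2 of the 16 tau genes were counted. So were 0 of the 5 xenobiotic and electrophile response genes and 7 of the 13513 single-gene plant probe sets. Without the 6 genes, 1 tau gene was past 2-fold. Signs turned for 4 of the 29 genes compared. These were GSTU15 at -0.014 and GSTL3 at 0.067 after the lowess subtraction, and GSTU28 at 0.10, GSTL3 at 0.21 and RCA at 0.16 after scaling to the hybridization controls. As deposited, these 4 genes lay between -0.11 and 0.075. The turns follow from the shifts applied, 0.22 for every gene by the scaling and at most 0.092 by the lowess subtraction. GSTU26 was -0.54 with 32 added, against -0.82 as deposited, and GSTU16 was 0.62 and GSTU20 0.41 after scaling to the hybridization controls. Leaving out the probe sets below the median signal gave 84 plant probe sets at least 2-fold higher and 120 lower. None of the named probe sets of the lists carried a shared-probe suffix. Leaving out such probe sets therefore could not change the counts of the lists, and nothing is read from it. No paired analysis was possible because each group has 1 array, and no array could be left out.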
